A study of Mus musculus with 12 samples.

Results

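Interferon-stimulated genes are the genes that cells switch on when interferon reaches them. A list of 36 such genes was followed through RNA sequencing of mouse liver. The list was matched by symbol to a table of FPKM, which scales the fragments counted on a gene by its length and by the size of the library. Of the 36, 34 were matched, out of 16970 genes in the table. Mx1 and Mx2 were not analysed here. All 34 passed the filter on low values, which kept genes that reached 1 FPKM in 3 or more libraries, 10805 in all.

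The livers came from mice with cholestasis, in which bile does not leave the liver properly, and formed 4 groups of 3 libraries. Abcb4KO_HDCA and Abcb4KO livers came from mice without Abcb4, which carries phosphatidylcholine into bile; they were 60 days old when the experiment began. For Abcb4KO_HDCA the mice were given 100 mg/kg of the bile acid hyodeoxycholic acid (HDCA) over 21 days. BDL_HDCA and BDL mice had a ligated bile duct for 7 days, and in BDL_HDCA the same dose was given on the last 4 of them, after a wait of 3. Library titles read MDR and MDR_H for the mutant groups, and these were read as Abcb4KO and Abcb4KO_HDCA because the study's description names no other second model. No strain, sex or vehicle was given in the sources used here, nor an age for the ligated mice. Healthy livers were not analysed here, and nothing says whether replicates were separate animals. The p-values therefore speak of library spread, which may be technical.

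Interferons are secreted when cells sense viral RNA or DNA, or nucleic acid of their own in the wrong place. Type I interferon binds the receptor chains IFNAR1 and IFNAR2, and the kinases JAK1 and TYK2 then start a signal that brings STAT2 and IRF9 together in a complex that binds an element called the ISRE in target promoters. Interferon gamma acts through another element, the GAS, and favours GTPases that attack vacuoles holding microbes. In liver, hepatocytes, Kupffer cells and endothelial cells can all respond.

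Promoter sequence is shown first, because the ISRE is the element through which type I interferon acts on these genes. Windows of 250 bases before to 50 bases after the transcript start (RefSeq, GRCm38.p6) were found for 25 of the 34 members. The ISRE core was taken as GAAA, 2 bases of any kind and GAAA again (GAAANNGAAA). Searched on both strands with overlapping matches counted, it occurred in the windows of 15 of the 25 members (60.0%), against 1079 of 27025 symbols with a window (3.99%). The GAS element TTCNNNGAA, which reads the same on both strands, occurred in 7 of 25 members (28.0%) and in 9.55% of all symbols, and 5 members had both elements. The 6 stretches below hold the ISRE core matches of Isg15, Bst2, Ifit1, Ifit3, Ifit3b and Rsad2, written along the coding strand with the bases of those matches in capitals; GAS matches are not marked. A match on the other strand reads as its reverse complement here, as in the IFIT genes and Rsad2. These genes were picked to show repeated matches, a near-identical pair and a gene with 1 match.
Isg15, chr4:156200851-156200920, minus strand: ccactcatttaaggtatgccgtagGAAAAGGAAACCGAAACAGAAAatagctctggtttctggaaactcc
Bst2, chr8:71537560-71537629, minus strand: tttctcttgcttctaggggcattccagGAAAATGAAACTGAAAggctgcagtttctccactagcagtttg
Ifit1, chr19:34640764-34640833, plus strand: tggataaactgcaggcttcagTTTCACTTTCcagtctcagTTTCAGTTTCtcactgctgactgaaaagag
Ifit3, chr19:34583360-34583429, plus strand: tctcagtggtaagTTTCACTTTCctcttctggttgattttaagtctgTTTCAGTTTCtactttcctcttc
Ifit3b, chr19:34607756-34607825, plus strand: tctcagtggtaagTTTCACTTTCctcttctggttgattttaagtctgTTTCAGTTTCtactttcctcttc
Rsad2, chr12:26456533-26456602, minus strand: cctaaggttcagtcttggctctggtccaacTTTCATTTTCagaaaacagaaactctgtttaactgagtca
Isg15 had 3 overlapping matches, whose first bases lay 78, 72 and 66 bases before the start. The stretches of the neighbouring genes Ifit3 and Ifit3b were identical at 70 of 70 bases, although they lay at different distances from their starts. A match is a run of letters and not a measured binding site, and its absence from a window says nothing about the factor.

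The libraries held 34260782 to 40427855 reads, recovered from the whole-number steps of the FPKM values. BDL replicate 1 and BDL_HDCA replicate 2 stood apart. Each was the lowest of its group in 34 of 34 members, against 70.5% and 74.7% of all genes tested, and the mean log2(FPKM + 1) of the members was 2.43 and 2.49 there, against 3.22 to 3.47 in the other 4 BDL-model libraries and 3.36 to 3.73 in the 6 Abcb4KO-model libraries. In BDL replicate 1 and BDL_HDCA replicate 2 the summed FPKM of Kupffer cell markers was 276 and 311, against 547 to 711 in the other BDL-model libraries, and that of hepatocyte markers was 73051 and 74405, against 57239 to 67955. Other markers set them apart from each other: the endothelial sum was 30.9 in BDL replicate 1 and 129 in BDL_HDCA replicate 2. The neutrophil sum was 26.6 in BDL replicate 1 and 74.6 in BDL_HDCA replicate 2. The part of these cell types in the result was not tested, and in bulk tissue fewer cells of a type and less RNA per cell cannot be told apart. Abcb4 itself was not lower in the groups read as knockout (129 to 181 FPKM, against 52.8 to 178 in BDL-model libraries), which does not check the titles, since a disrupted allele can still be transcribed. The summed FPKM of 4 Y-linked genes was 0 to 0.016 in 5 Abcb4KO-model libraries, 20.1 in Abcb4KO replicate 1 and 16.1 to 19.6 in the BDL-model libraries.

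**Figure D1:**
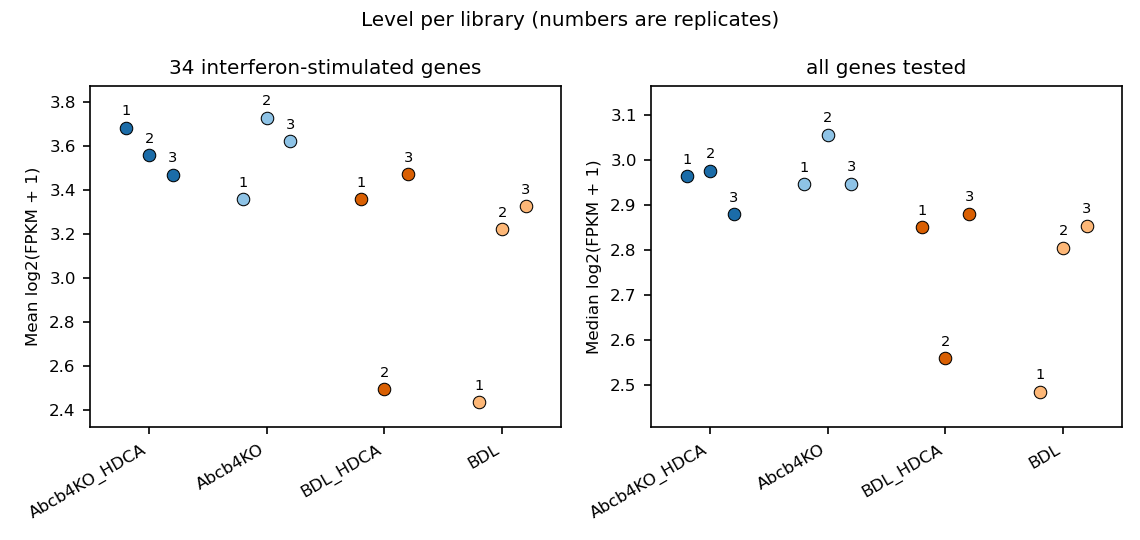
Level of each library by group: the mean log2(FPKM + 1) of 34 interferon-stimulated genes on the left and the median over all genes tested on the right, with the replicate number above each point. BDL replicate 1 (2.43) and BDL_HDCA replicate 2 (2.49) lie far below the other 10 libraries on the left, and they are also the lowest pair on the right.

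The members differed widely in level. On the FPKM scale, which allows levels of different genes to be compared per length, Ifitm3, a membrane protein that blocks the entry of enveloped viruses, stood highest, with 673 ± 83.6 in Abcb4KO_HDCA, 653 ± 21.5 in Abcb4KO, 703 ± 80.9 in BDL_HDCA and 656 ± 210.2 in BDL livers (SD, n = 3 each). Bst2, or tetherin, which holds budding virus at the cell surface, and Iigp1, a GTPase of the interferon gamma response, came next by the mean over all 12 libraries. Of the 34 members, 6 had a mean over all libraries of at least 20 FPKM, 21 of at least 5, and 33 of at least 1. Oas2 was the lowest, at 0.163 to 1.15 FPKM, and rested on as few as 26 reads in a library. Ifit3b rested on as few as 13 reads. All 12 libraries reached 1 FPKM for 23 members. Ifi44, Ifit2, Ifit3b and Oas2 reached it in fewer than 3 of the 6 BDL-model libraries and thus passed the filter through the Abcb4KO-model libraries.

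**Figure D2:**
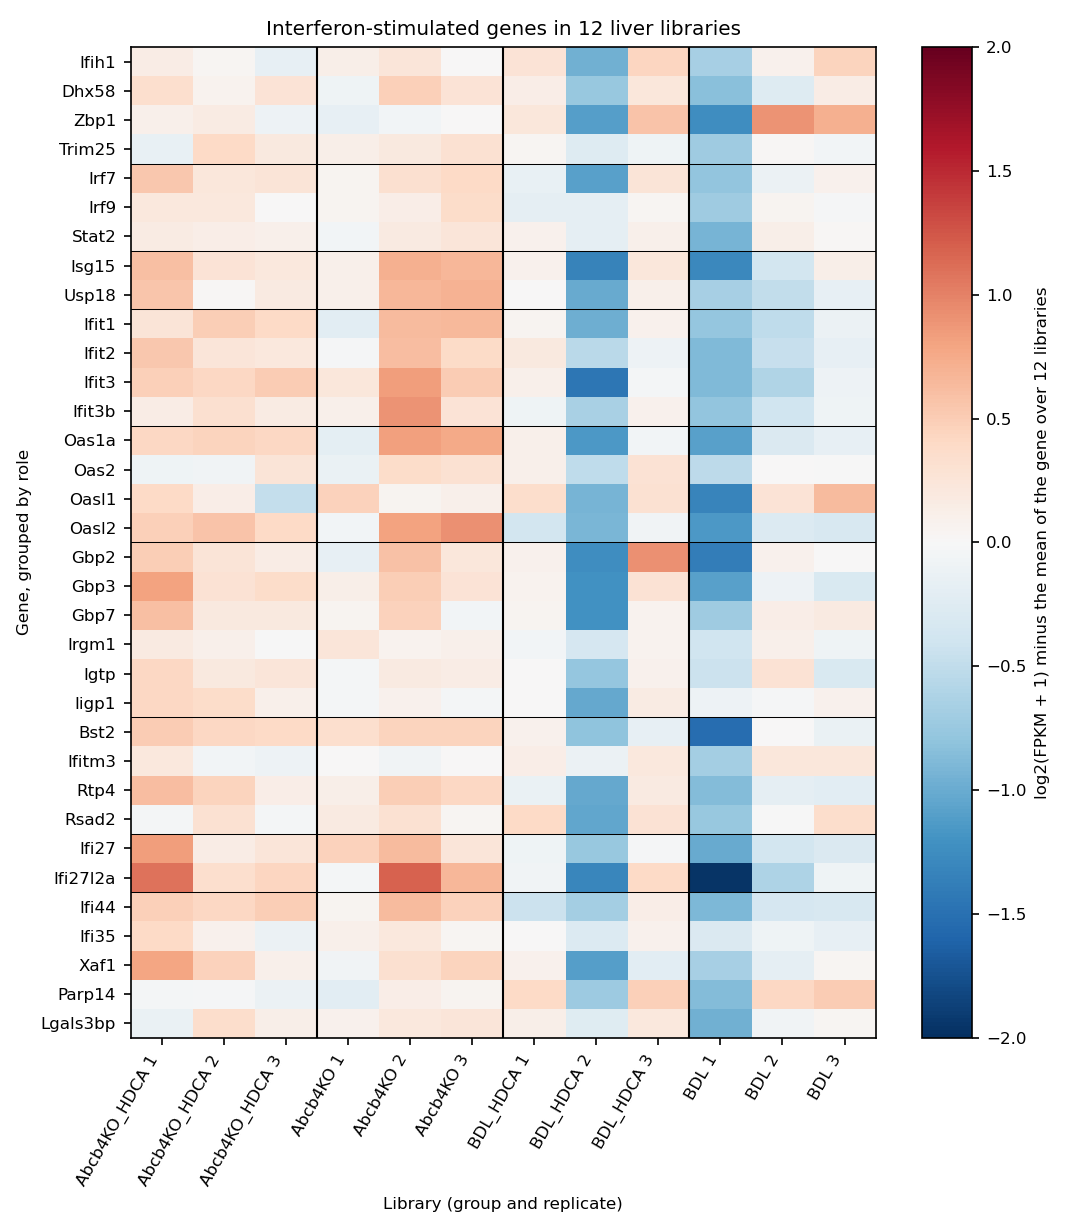
Each row is an interferon-stimulated gene, grouped by role, and each column a library; colour gives log2(FPKM + 1) minus the mean of the gene over the 12 libraries, from blue (lower) to red (higher). The columns of BDL replicate 1 and BDL_HDCA replicate 2 are blue in nearly every row, and the Abcb4KO-model columns are mostly pale to red.

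Reads of near-identical genes limit some members. Counting 50-base windows of the longest GENCODE transcript, Ifit3 shared 51.2% of its windows with another gene, all of them with Ifit3b, and Oas1a shared 57.6% with Oas1g, while 17 members shared none. How multiply mapped reads were assigned is not given in the sources used here, so the values of Ifit3, Ifit3b and Oas1a are uncertain. Ifi35 overlaps an antisense gene, Gm11626, over 16.8% of its exonic bases, and whether counting used strand is not given either.

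The first question was what HDCA changes after bile duct ligation. None of the 34 members passed the test (limma on log2(FPKM + 1), Benjamini-Hochberg adjusted p under 0.05), and none of the 10805 genes did, a background of 0%. At an unadjusted p under 0.05 there were 0 members and 243 genes, and limma-voom, run on reads, called 0. The log2 fold change of BDL_HDCA minus BDL was positive in 27 of 34 members, against 58.8% of all genes, and its median was 0.14 over the members and 0.03 over all genes. In no member did all BDL_HDCA libraries lie on 1 side of all BDL libraries, which they did for 3.43% of genes above and 1.59% below. Endothelial and stellate cell markers also leaned upward with HDCA: 10 of 10 endothelial markers were positive, with a median of 0.78 and a summed FPKM of 129 to 146 in BDL_HDCA and 30.9 to 137 in BDL livers, and 10 of 10 stellate cell and fibroblast markers were positive, with a median of 0.67 and a summed FPKM of 129.7 to 213 in BDL_HDCA and 62.8 to 126 in BDL livers. Of the BDL endothelial sums, 30.9 was replicate 1, the library that stood apart, and replicates 2 and 3 were at 93.7 and 137. The stellate cell sum of 62.8 was replicate 1 as well. Neutrophil markers were positive in 5 of 5, with a median of 0.44. Positive in the other lists were 5 of 10 Kupffer cell, 6 of 10 macrophage, 5 of 9 cholangiocyte and 3 of 10 hepatocyte markers. The same held for 4 of 7 T and NK cell, 2 of 3 B and plasma cell and 3 of 4 plasmacytoid dendritic cell markers. None of these markers was called, and their part in the member values was not tested.

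The regulators of the response come first. Irf7, which drives interferon alpha genes and feeds the response forward, was at 27.6, 14.0 and 36.8 FPKM in BDL_HDCA replicates 1 to 3 and at 17.4, 28.3 and 32.6 in BDL replicates 1 to 3. The groups overlapped, with the low value of each in the library that stood apart (log2 fold change -0.05 ± 0.31, SE; limma adjusted p = 1.00). Irf9, the DNA-binding partner of the STAT complex, had 8.58, 8.53 and 10.1 FPKM in BDL_HDCA and 5.63, 10.2 and 9.64 in BDL livers. Stat2, the subunit that brings the activating domain, had 10.3, 8.37 and 10.4 FPKM in BDL_HDCA and 4.58, 10.5 and 9.78 in BDL livers, a log2 fold change of 0.27 ± 0.23 (95% interval -0.24 to 0.77). For Irf9 and Stat2 the low BDL value was again replicate 1, and the other 5 libraries lay close together.

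Isg15 encodes a ubiquitin-like protein that is joined to other proteins and also secreted. It was at 12.2, 3.91 and 13.4 FPKM in BDL_HDCA and 4.08, 8.55 and 12.4 in BDL livers, and both groups spanned a low library and higher ones (log2 fold change 0.17 ± 0.42, interval -0.74 to 1.09). Usp18, which removes ISG15 and also damps signalling at the receptor, had 6.28, 2.63 and 6.80 FPKM in BDL_HDCA and 3.57, 4.17 and 5.53 in BDL livers, with overlap (log2 fold change 0.14 ± 0.28). Of the antiviral effectors, Ifit2, of the RNA-binding IFIT family, had the smallest p among positive changes. It was at 1.50, 0.517 and 1.04 FPKM in BDL_HDCA and 0.193, 0.595 and 0.955 in BDL livers (log2 fold change 0.35 ± 0.23; limma adjusted p = 1.00), and the highest BDL value exceeded the lowest BDL_HDCA one. Lgals3bp, a secreted glycoprotein that binds galectin-3, was at 55.7, 43.0 and 59.4 FPKM in BDL_HDCA and 25.8, 48.6 and 52.8 in BDL livers (log2 fold change 0.36 ± 0.24).

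The smallest p among negative changes belonged to GTPases and an apoptosis gene. Iigp1 was at 78.7, 37.8 and 87.3 FPKM in BDL_HDCA and 72.2, 76.8 and 82.4 in BDL livers, so that replicates 1 and 3 with HDCA lay within or above the untreated range and replicate 2 far below it (log2 fold change -0.27 ± 0.25; limma adjusted p = 1.00). Gbp7, a guanylate binding protein, had 2.50, 0.455 and 2.53 FPKM in BDL_HDCA and 1.05, 2.70 and 2.82 in BDL livers. Xaf1, a partner of the apoptosis inhibitor XIAP, had 2.36, 0.471 and 1.74 FPKM in BDL_HDCA and 1.01, 1.79 and 2.27 in BDL livers. Log2 fold changes were -0.23 ± 0.34 for Gbp7 and -0.14 ± 0.30 for Xaf1, neither past its SE.

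The direction over the list in the ligation model depended on single libraries. Without BDL replicate 1 the member median was -0.12, with 26 of 34 negative; without BDL_HDCA replicate 3 it was -0.06, with 21 negative; without BDL_HDCA replicate 2 it was 0.42, with 34 of 34 positive. Without both low libraries it was 0.17, with 26 of 34 positive and 0 called, and 23 of 34 members kept the sign they had with all 12 libraries. The 95% interval lay within a doubling or halving for 28 of 34 members, and the widest reached from -1.36 (Zbp1) to 1.71 (Ifi27l2a).

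The second question was what 21 days of HDCA change in Abcb4KO livers. Again 0 of 34 members and 0 of 10805 genes passed (limma; background 0%), with 0 members and 61 genes at an unadjusted p under 0.05 and 0 called by limma-voom. The list was evenly divided, 17 members positive and 17 negative, against 36% of genes positive, with a median log2 fold change of -0.0001 against -0.04 over all genes. Iigp1 and Igtp, both immunity-related GTPases that interferon gamma induces strongly in mice, were the only members whose 3 HDCA libraries lay above all 3 untreated ones, 2 of 34 (5.88%) against 1.35% of genes. None lay wholly below, against 4.6% of genes.

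**Figure D3:**
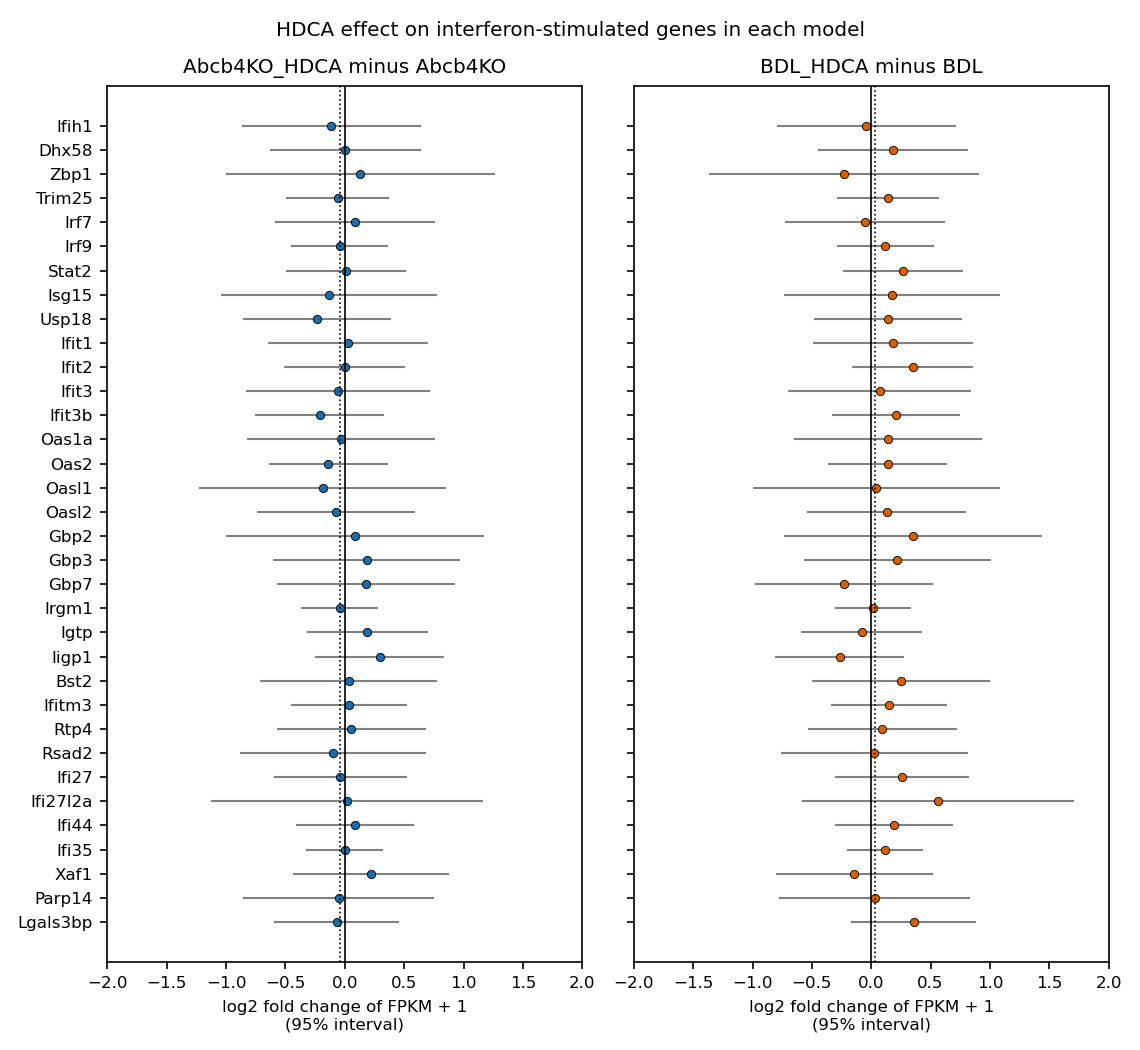
Log2 fold change of FPKM + 1 with its 95% interval for each of 34 interferon-stimulated genes, Abcb4KO_HDCA minus Abcb4KO on the left and BDL_HDCA minus BDL on the right; the dotted line is the median of all genes tested. Every interval crosses 0 in both panels, and the points scatter around 0 on the left and mostly to the right of it on the right.

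Iigp1 was at 104, 101 and 84.0 FPKM in Abcb4KO_HDCA and 75.6, 82.8 and 75.6 in Abcb4KO replicates 1 to 3 (log2 fold change 0.29 ± 0.25, SE; interval -0.25 to 0.84; limma adjusted p = 1.00). The groups were parted by a narrow gap, since the lowest HDCA library barely exceeded the highest untreated one. Igtp was at 15.3, 13.1 and 13.5 FPKM in Abcb4KO_HDCA and 10.9, 12.9 and 12.7 in Abcb4KO livers (log2 fold change 0.19 ± 0.23). Xaf1, with the third smallest p on the positive side, had 4.45, 3.37 and 2.39 FPKM in Abcb4KO_HDCA and 2.01, 2.95 and 3.29 in Abcb4KO livers and overlapped (log2 fold change 0.22 ± 0.30). Of the 6 GTPases on the list (Gbp2, Gbp3, Gbp7, Irgm1, Igtp and Iigp1), 5 were positive here and 3 in the ligation model, and 0 were called in either.

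On the negative side, Usp18 was at 9.65, 6.38 and 7.28 FPKM in Abcb4KO_HDCA and 6.84, 10.5 and 10.8 in Abcb4KO livers (log2 fold change -0.24 ± 0.28). Ifit3b was at 1.20, 1.48 and 1.22 FPKM in Abcb4KO_HDCA and 1.13, 2.71 and 1.38 in Abcb4KO livers, where replicate 2 alone was high (log2 fold change -0.21 ± 0.25). Oas2, which makes the oligoadenylates that activate RNase L, was at 0.572, 0.597 and 1.01 FPKM in Abcb4KO_HDCA and 0.519, 1.15 and 1.06 in Abcb4KO livers, with overlap. All 4 oligoadenylate synthetase genes were negative (Oas1a -0.03, Oas2 -0.14, Oasl1 -0.19 and Oasl2 -0.07 on the log2 scale), none past the test.

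None of the regulators was called for HDCA in Abcb4KO livers. Irf7 was at 45.3, 36.1 and 36.8 FPKM in Abcb4KO_HDCA and 32.0, 38.5 and 40.9 in Abcb4KO livers. Irf9 was at 11.5, 11.5 and 9.82 FPKM in Abcb4KO_HDCA and 10.2, 10.8 and 13.0 in Abcb4KO livers. Stat2 was at 10.9, 10.7 and 10.4 FPKM in Abcb4KO_HDCA and 9.20, 11.1 and 11.6 in Abcb4KO livers. Isg15 was at 17.9, 13.9 and 13.3 FPKM in Abcb4KO_HDCA and 12.3, 19.3 and 18.6 in Abcb4KO livers. In all 4 genes the groups overlapped, and the Stat2 difference was 0.01 ± 0.23 with an interval of -0.49 to 0.51. Intervals lay within a doubling or halving for 29 of 34 members. Without Abcb4KO replicate 1, the library with Y-linked reads, the member median was -0.10 with 26 of 34 negative, and without Abcb4KO_HDCA replicate 1 it was -0.05. Leaving out any other library of this model gave medians of 0.01 to 0.05.

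The difference between the HDCA effects, Abcb4KO minus BDL, was tested in the same fit, and 0 of 34 members and 0 of 10805 genes passed (background 0%; 0 members and 200 genes at an unadjusted p under 0.05; limma-voom 0). It was positive in 6 of 34 members and negative in 28, against 35% of genes positive, with a median of -0.16 against -0.07 over all genes. The smallest p on the positive side belonged to Iigp1 (0.56 ± 0.35, SE), Xaf1 (0.36 ± 0.43) and Gbp7 (0.41 ± 0.48), and on the negative side to Lgals3bp (-0.43 ± 0.34), Ifit3b (-0.42 ± 0.35) and Ifit2 (-0.35 ± 0.33), all with limma adjusted p = 1.00. Without BDL replicate 1 the median was 0.08, with 25 of 34 positive, and without BDL_HDCA replicate 3 it was -0.003, with 17 positive. Without both BDL replicate 1 and BDL_HDCA replicate 2 it was -0.17, with 25 of 34 negative. The direction thus depended on which libraries were kept.

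The third comparison set the models side by side without treatment. Abcb4KO and BDL livers differ in operation, genotype and Y-linked reads, and may differ in age, and these cannot be told apart. Of the 34 members, 6 (17.6%) were higher in Abcb4KO livers and 0 lower (limma adjusted p under 0.05), against 15.1% of genes higher and 1.07% lower (16.2% in either direction), so the share among members was near the background. The 6 were Ifi44, Ifi27, Oasl2, Ifit2, Ifit3b and Usp18. The log2 fold change was positive in 32 of 34 members, against 83.6% of genes, and its median was 0.52 against 0.25. All 3 Abcb4KO libraries lay above all 3 BDL libraries for 14 members (41.2%), against 39.2% of genes, and below for 0 members, against 3.12% of genes.

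Ifi44, a GTP-binding protein of the antiviral response, was at 1.43, 2.63 and 2.21 FPKM in Abcb4KO and 0.259, 0.864 and 0.874 in BDL replicates 1 to 3. The groups did not overlap (log2 fold change 0.90 ± 0.23, SE; limma adjusted p = 0.0240). Ifi27, a small membrane protein and a common readout of interferon exposure, was at 56.5, 63.9 and 48.8 FPKM in Abcb4KO and 19.8, 31.5 and 33.5 in BDL livers (1.00 ± 0.26; adjusted p = 0.0259). Its paralog Ifi27l2a had the largest member difference but also the widest spread, 13.7, 33.1 and 22.9 FPKM in Abcb4KO and 2.86, 8.85 and 13.2 in BDL livers (1.49 ± 0.52; limma adjusted p = 0.0711), and was not called.

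Oasl2, an oligoadenylate synthetase-like protein, was at 3.52, 7.23 and 7.83 FPKM in Abcb4KO and 1.12, 2.87 and 2.78 in BDL livers (1.13 ± 0.30; limma adjusted p = 0.0301). Abcb4KO replicate 1, the library with Y-linked reads, was the closest to the BDL values, and it was the lowest of its group in 26 of 34 members, against 48.8% of genes tested. The other 3 genes of that role were not called: Oas1a differed by 0.97 ± 0.36, Oas2 by 0.35 ± 0.23 and Oasl1, which in mice restrains translation of Irf7, by 0.35 ± 0.47. Among IFIT genes, Ifit2 was at 1.17, 2.35 and 1.86 FPKM in Abcb4KO and 0.193, 0.595 and 0.955 in BDL livers (0.83 ± 0.23; limma adjusted p = 0.0359). Ifit3b was at 1.13, 2.71 and 1.38 FPKM in Abcb4KO and 0.149, 0.503 and 0.863 in BDL livers (0.85 ± 0.25; adjusted p = 0.0407). Its partner Ifit3, with the same promoter stretch, was at 4.38, 7.18 and 5.52 FPKM in Abcb4KO and 1.48, 2.03 and 3.28 in BDL livers and missed the test (1.05 ± 0.35; adjusted p = 0.0624), as did Ifit1, which binds viral RNA by its cap (0.82 ± 0.31; adjusted p = 0.0859). Of the 6 called genes, 3 (Ifi44, Ifit2 and Ifit3b) passed the filter through Abcb4KO-model libraries. Passing that way favours a difference, so the count is given as a description, although Oas2 passed likewise and was not called. Of the called genes with a promoter window, Ifit3b held the ISRE core, and Ifi44, Oasl2 and Ifit2 did not.

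Usp18 was at 6.84, 10.5 and 10.8 FPKM in Abcb4KO and 3.57, 4.17 and 5.53 in BDL livers and did not overlap (0.93 ± 0.28; limma adjusted p = 0.0477). Isg15, the substrate it acts on, was at 12.3, 19.3 and 18.6 FPKM in Abcb4KO and 4.08, 8.55 and 12.4 in BDL livers, where the highest BDL library passed the lowest Abcb4KO one (1.01 ± 0.42; adjusted p = 0.114). Bst2 was at 175, 189 and 191 FPKM in Abcb4KO and 48.1, 140.1 and 127 in BDL livers, without overlap (0.95 ± 0.34; limma adjusted p = 0.0757), and Rtp4, which restricts flaviviruses, differed by 0.76 ± 0.29. Rsad2, or viperin, whose product halts viral RNA synthesis, differed by 0.31 ± 0.36 and overlapped; its promoter stretch holds an ISRE core.

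**Figure D4:**
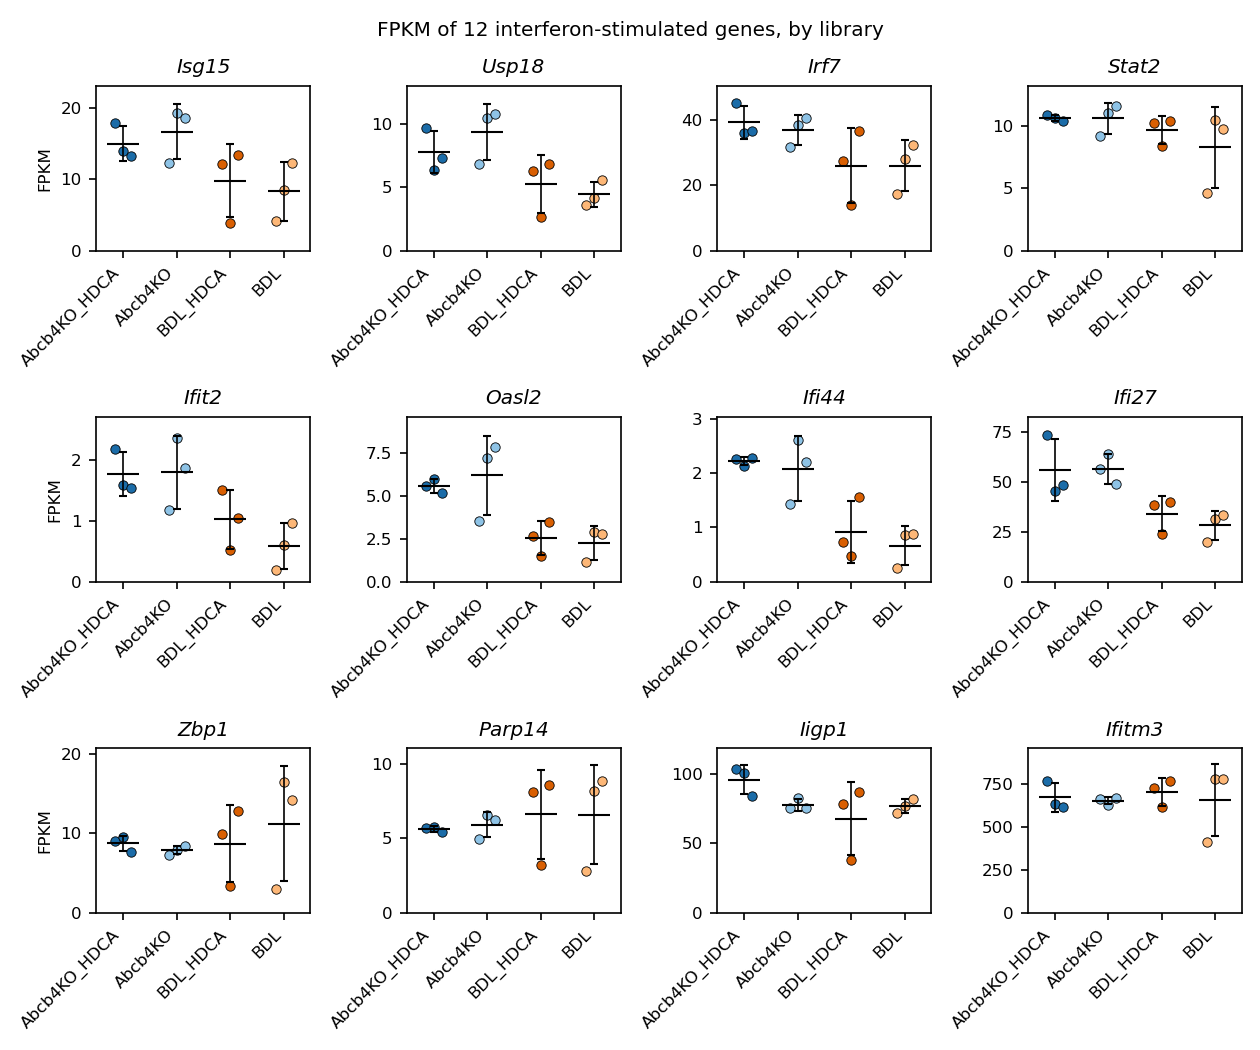
FPKM of 12 interferon-stimulated genes in every library by group, on linear axes starting at 0; points are libraries, the bar is the mean and the whisker 1 SD (n = 3). Ifi44, Ifit2, Oasl2, Usp18 and Ifi27 are higher in both Abcb4KO-model groups than in most BDL-model libraries, whereas Zbp1 and Parp14 are spread wide in the BDL-model groups.

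The transcription factors were not called between the untreated models. Irf7 was at 37.1 ± 4.61 FPKM in Abcb4KO and 26.1 ± 7.82 in BDL livers (SD, n = 3 each; log2 fold change 0.53 ± 0.31). Irf9 averaged 11.3 ± 1.45 FPKM in Abcb4KO and 8.49 ± 2.49 in BDL livers (0.41 ± 0.19), and Stat2 10.6 ± 1.25 FPKM in Abcb4KO and 8.28 ± 3.23 in BDL livers (0.39 ± 0.23). Sensors were not called either: Ifih1 (MDA5), a sensor of long double-stranded RNA, differed by 0.16 ± 0.34, its regulator Dhx58 by 0.53 ± 0.29, and Trim25, a ubiquitin ligase that aids RNA sensing, by 0.45 ± 0.20. GTPases ran from 0.02 for Iigp1 to 0.80 for Gbp3. Ifitm3 (0.05), Ifi35 (0.29), Xaf1 (0.49) and Lgals3bp (0.52) completed the positive members.

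Zbp1 and Parp14 were the 2 members below 0. Zbp1, a sensor of nucleic acid in the Z form that can start necroptosis, was at 7.30, 7.95 and 8.38 FPKM in Abcb4KO and 2.95, 16.5 and 14.2 in BDL livers. Parp14, an ADP-ribosyltransferase, was at 4.96, 6.60 and 6.21 FPKM in Abcb4KO and 2.80, 8.17 and 8.85 in BDL livers. In both genes BDL replicate 1 lay below every Abcb4KO library, and BDL replicates 2 and 3 above every one. Without BDL replicate 1 and BDL_HDCA replicate 2, both were called lower in Abcb4KO livers (Zbp1 -0.88 ± 0.13, limma adjusted p = 0.00355, and Parp14 -0.47 ± 0.11, adjusted p = 0.0204). With all 12 libraries the values were -0.20 ± 0.52 and -0.02 ± 0.37. Those libraries stood apart by their low values in these same data, and leaving them out narrows the spread, so these calls are given as a description.

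The count of members called rested on single libraries. The share of all genes called higher moved as well. The member count was 0 without BDL replicate 1, Abcb4KO replicate 2 or Abcb4KO replicate 3 (9.37%, 4.18% and 5.79% of all genes), 3 without BDL replicate 2, Abcb4KO_HDCA replicate 2 or Abcb4KO_HDCA replicate 3 (7.52%, 11.5% and 11.4%), 4 without BDL_HDCA replicate 1 or Abcb4KO_HDCA replicate 1 (12.2% and 13.9%), and 13 without BDL_HDCA replicate 2 (20.1%). The count was 6 without BDL_HDCA replicate 3 and 8 without BDL replicate 3 (12.9% and 14.9% of all genes). Without Abcb4KO replicate 1 it was 7 (11.9% of all genes), with a member median of 0.64 against 0.27 over all genes. Without both libraries that stood apart, 8 members were higher (Usp18, Ifit2, Ifit3, Oasl2, Bst2, Rtp4, Ifi27 and Ifi44), 5 of them shared with the 6 above, and 2 were lower, against 17.3% of all genes higher and 3.34% lower, and the member median was 0.25 against 0.17 over all genes. Scaling the columns by the median of ratios put the median of all genes at -0.05, the member median at 0.24 and 3 members higher (Oasl2, Ifi27 and Ifi44); it split the calls over all genes into 640 higher and 486 lower, against 1630 and 116 as deposited.

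**Figure D5:**
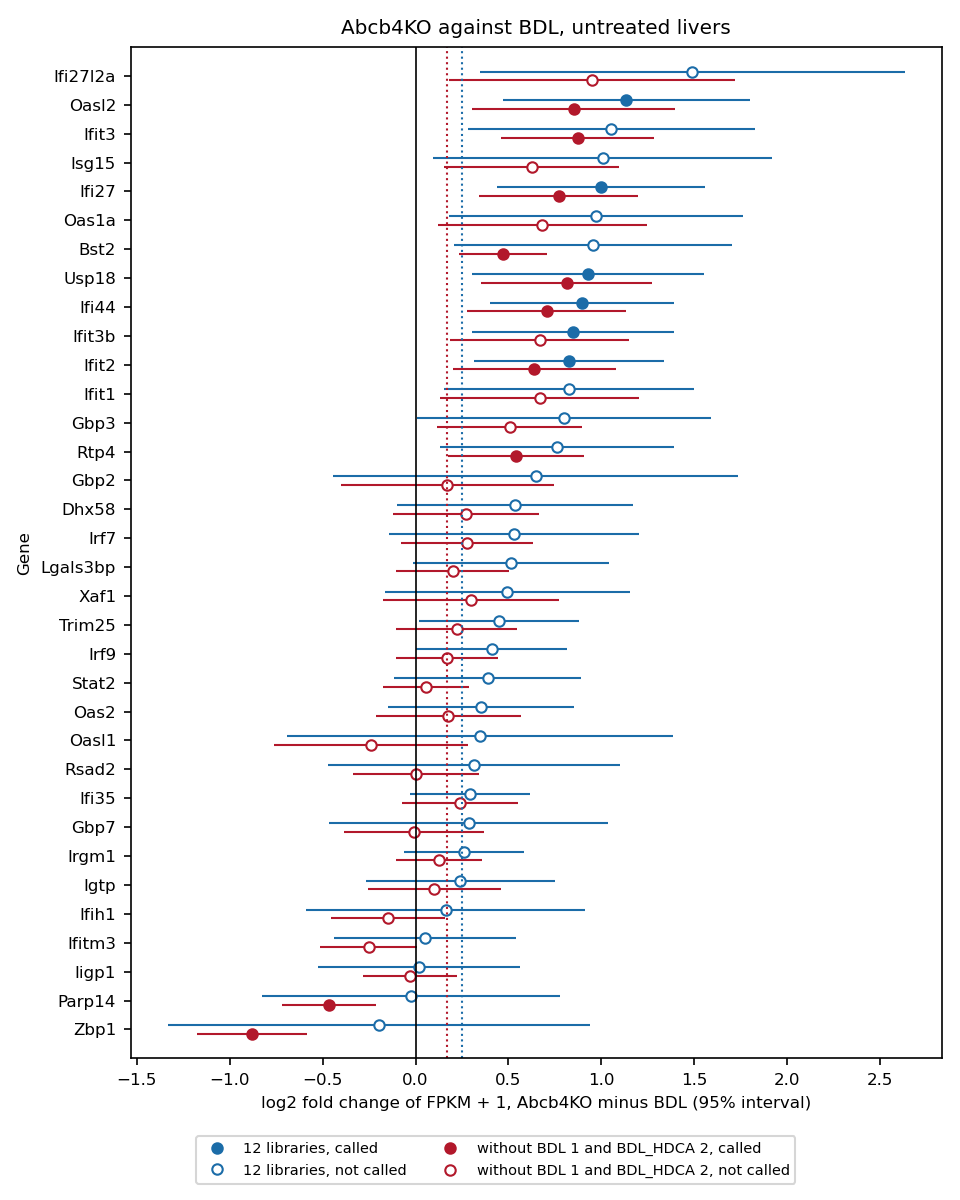
Log2 fold change of FPKM + 1, Abcb4KO minus BDL without treatment, with 95% intervals for 34 interferon-stimulated genes, from all 12 libraries (blue) and without BDL replicate 1 and BDL_HDCA replicate 2 (red); filled points passed the test and dotted lines are the medians of all genes tested (0.25 and 0.17). Intervals are narrower in red, 8 red points are filled to the right of 0, and Zbp1 and Parp14 are filled to the left.

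The same models were compared with HDCA in both, where dose matched but days of treatment did not. No member passed (limma; 0 of 34, against 7.36% of genes higher, 0.935% lower and 8.29% in either direction), with 9 members and 3060 genes (28.3%) at an unadjusted p under 0.05 and 0 members called by limma-voom. The log2 fold change was positive in 32 of 34, against 77% of genes, with a median of 0.49 against 0.20. All 3 Abcb4KO_HDCA libraries lay above all 3 BDL_HDCA libraries for 12 members (35.3%), against 32.4% of genes, and below for 0, against 4.55%.

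Ifi44 came closest, at 2.27, 2.13 and 2.28 FPKM in Abcb4KO_HDCA and 0.738, 0.464 and 1.56 in BDL_HDCA livers (0.79 ± 0.23, SE; limma adjusted p = 0.0540). Oasl2 was at 5.55, 5.99 and 5.17 FPKM in Abcb4KO_HDCA and 2.63, 1.49 and 3.49 in BDL_HDCA livers (0.93 ± 0.30; adjusted p = 0.0782), and Xaf1 at 4.45, 3.37 and 2.39 FPKM in Abcb4KO_HDCA and 2.36, 0.471 and 1.74 in BDL_HDCA livers (0.86 ± 0.30; adjusted p = 0.0944). All of these were without overlap. Parp14 and Ifitm3 were the 2 negative members. Parp14 was at 5.72, 5.79 and 5.40 FPKM in Abcb4KO_HDCA and 8.11, 3.18 and 8.58 in BDL_HDCA livers (-0.11 ± 0.37), and Ifitm3 at 769, 635 and 615 FPKM in Abcb4KO_HDCA and 728, 613 and 769 in BDL_HDCA livers (-0.06 ± 0.22), with overlap in both. Without the libraries that stood apart, Bst2 was called higher (0.48 ± 0.11, limma adjusted p = 0.0215) and Parp14 lower (-0.49 ± 0.11, adjusted p = 0.0263), against 8.45% of all genes higher and 3.34% lower, and the member median was 0.21 against 0.10 over all genes. Leaving out BDL replicate 1, which is in neither group compared but shares the estimate of spread, gave 3 members called higher, against 12.7% of all genes, and leaving out BDL_HDCA replicate 3 gave 1, against 3.86%. Median-of-ratios scaling put the median of all genes at -0.03 and split their calls into 333 higher and 372 lower, against 795 and 101 as deposited, with 0 members called.

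The rest of the pathway was read from lists of its parts. Of 9 interferon genes listed, 3 were matched, and none reached the filter: Ifnk was at 0.178, 0.131 and 0.0309 FPKM in Abcb4KO_HDCA livers and was listed at 0 in the other 9 libraries, and Ifnb1 and Ifng did not exceed 0.0838 FPKM in any library. Of 6 receptor genes 5 were tested and 0 called in any comparison. Ifnar1 was at 8.51 ± 0.567 FPKM in Abcb4KO and 7.02 ± 1.55 in BDL livers (SD, n = 3 each; 0.26 ± 0.15), and Ifnar2 at 12.2 ± 0.701 FPKM in Abcb4KO and 12.4 ± 0.975 in BDL livers (-0.02 ± 0.16). Among 10 kinases, STATs and interferon regulatory factors, 1 was called. Stat3, the main transducer of interleukin 6, was at 35.7, 30.7 and 33.9 FPKM in Abcb4KO livers, against 48.1, 59.6 and 44.9 in BDL livers (-0.58 ± 0.17, limma adjusted p = 0.0366). The Stat3 call was kept in 13 of 21 alternative settings. Irf1, a factor that interferon gamma induces, differed by 0.37 ± 0.33.

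With HDCA these upstream genes were also not called. Log2 fold changes with HDCA in Abcb4KO livers were -0.06 ± 0.33 for Irf1, -0.06 ± 0.15 for Ifnar1 and 0.01 ± 0.16 for Ifnar2, and in the ligation model 0.42 ± 0.33, 0.04 ± 0.15 and -0.14 ± 0.16 for the same genes. Of 10 sensors and adaptors tested, 0 were called in any comparison. Of 7 inhibitors tested, Socs3, which blocks cytokine receptors and is a target of STAT3, was called lower in the Abcb4KO model. It was at 3.69, 5.72 and 3.56 FPKM in Abcb4KO livers, against 20.7, 23.4 and 15.8 in BDL livers (-1.98 ± 0.48, limma adjusted p = 0.0206). With HDCA it was at 3.68, 7.23 and 2.95 FPKM in Abcb4KO_HDCA livers, against 16.5, 82.8 and 23.2 in BDL_HDCA livers (-2.62 ± 0.48, limma adjusted p = 0.0136). BDL_HDCA replicate 2 was the highest of all libraries for Socs3, and without it and BDL replicate 1 the difference between the HDCA-treated models was -1.95 ± 0.31 (limma adjusted p = 0.00660).

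A further 56 interferon-stimulated genes outside the 36 were listed and 50 tested. Between the untreated models 12 were higher and 1 lower in Abcb4KO livers, with a median of 0.58, against 15.1% of all genes higher, 1.07% lower and a median of 0.25. Between the HDCA-treated models 2 were higher and 1 lower, with a median of 0.52, against 7.36%, 0.935% and 0.20 over all genes. With HDCA in either model 0 were called. Of the 12 called higher, 6 (Gbp4, Gbp5, Gbp8, Phf11d, Slfn8 and Tgtp2) reached 1 FPKM in fewer than 3 BDL-model libraries and so passed the filter through the Abcb4KO-model libraries, as did both called higher between the HDCA-treated models (Gbp8 and Tgtp2), so their calls are given as a description. Slfn5, of the Schlafen family, was at 2.62, 4.23 and 3.63 FPKM in Abcb4KO and 0.575, 1.18 and 1.77 in BDL livers (1.07 ± 0.25; limma adjusted p = 0.0175). Its relative Slfn8 was at 0.937, 1.81 and 1.66 FPKM in Abcb4KO and 0.267, 0.370 and 0.598 in BDL livers (0.80 ± 0.19; limma adjusted p = 0.0199). In neither did the groups overlap. Gbp5, a guanylate binding protein of inflammasome responses, was at 0.860, 1.03 and 1.19 FPKM in Abcb4KO and 0.0591, 0.446 and 0.543 in BDL livers (0.60 ± 0.15; adjusted p = 0.0203). Gbp8 was at 2.08, 1.67 and 1.81 FPKM in Abcb4KO_HDCA and 0.728, 0.127 and 0.801 in BDL_HDCA livers (0.91 ± 0.23; adjusted p = 0.0369), and Tgtp2, an immunity-related GTPase, at 3.47, 1.64 and 1.74 FPKM in Abcb4KO_HDCA and 0.795, 0.160 and 1.07 in BDL_HDCA livers (0.97 ± 0.26; adjusted p = 0.0467).

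Of these 50 genes, 4 were lower in untreated Abcb4KO livers by their fold change, Dtx3l, Cxcl10, Ifitm2 and Tgtp1, and Dtx3l was the 1 that was called. It encodes a ubiquitin ligase that works in a complex with PARP9. It was at 2.55, 2.26 and 2.80 FPKM in Abcb4KO livers, against 7.84, 10.3 and 10.2 in BDL livers (-1.56 ± 0.15, SE, on the log2 scale, limma adjusted p = 0.000802). With HDCA in both models it was at 1.85, 1.71 and 2.49 FPKM in Abcb4KO_HDCA and 9.98, 9.06 and 12.0 in BDL_HDCA livers (-1.91 ± 0.15; adjusted p = 0.000164). Every Abcb4KO-model library was below every BDL-model library, and the untreated call was kept in 21 of 21 alternative settings. Parp9 (chr16:35938470-35972605, GRCm38), which lies head to head with Dtx3l (chr16:35926511-35939151) and overlaps it over 9.4% of its exonic bases, was at 10.4, 12.8 and 11.8 FPKM in Abcb4KO and 10.4, 11.2 and 11.7 in BDL livers and overlapped (0.06 ± 0.11). Parp14, on the list of 36, lies on the same chromosome.

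Markers of other cell types differed between the models to unequal degrees. Between untreated Abcb4KO and BDL livers, 4 of 7 T and NK cell markers tested, 4 of 10 markers of monocyte-derived macrophages, 1 of 10 Kupffer cell markers and 6 of 10 endothelial markers were called higher and 0 lower, against 15.1% of all genes higher and 1.07% lower. Of the Kupffer cell markers 3 were negative. Likewise 8 of 10 stellate cell and fibroblast, 5 of 9 cholangiocyte and 2 of 3 B and plasma cell markers were called higher and 0 lower, and of 5 neutrophil markers 0 were called. Some lists lost many markers to the filter, which kept 7 of 12 T and NK cell, 3 of 6 B and plasma cell and 4 of 9 plasmacytoid dendritic cell markers. The B and plasma cell sum was only 0.829 to 3.10 FPKM in BDL-model libraries. How many markers passed through the Abcb4KO-model libraries was not checked. Passing that way favours a difference, so the marker counts of both model comparisons are given as a description. The summed FPKM of T and NK cell markers was 12.4 to 20.6 in Abcb4KO and 3.04 to 8.54 in BDL livers, and that of macrophage markers 739 to 1591 in Abcb4KO and 208 to 617 in BDL livers. The summed FPKM of hepatocyte markers, in which Alb and Apoa1 weigh most, was 42772 to 50728 FPKM in Abcb4KO and 60688 to 73051 in BDL livers; 6 of the 10 were negative and 4 positive, and 1, Apoa1, was called lower. Plasmacytoid dendritic cells, the strongest makers of interferon alpha, are marked by Siglech, which was at 0.914, 0.959 and 0.680 FPKM in Abcb4KO and 0, 0.105 and 0.495 in BDL livers, under 1 FPKM in every one of these libraries. The summed FPKM of that list was 82.7 to 220.2 in Abcb4KO and 13.6 to 54.8 in BDL livers, most of it from Ly6d, the 1 of its 4 tested markers that was called. Between the HDCA-treated models fewer markers were called higher: 0 of 10 endothelial, 1 of 10 macrophage, 1 of 10 Kupffer cell and 3 of 7 T and NK cell markers. So were 6 of 10 stellate cell and fibroblast, 2 of 9 cholangiocyte and 0 of 3 B and plasma cell markers, against 7.36% of all genes. Of 5 neutrophil markers 1 was called lower there. The part of these cells in the member values was not tested.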

How the data were processed

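Liver RNA was extracted with TRIzol and polyA libraries were made with the VAHTS Universal V6 kit (labels' protocols). Tools named in the submitters' processing notes are HISAT2 2.0.5, featureCounts 1.5.0-p3, fastp, DESeq2 1.20.0 and CASAVA 1.8, with the build GRCm38. The sources used here give neither the annotation nor any use of strand. The authors deposited 1 table of FPKM values for 16970 symbols in 12 libraries, and groups came from the titles. FPKM depends on depth and on what the most abundant genes take. Whole reads were recovered from the FPKM steps for 16968 genes (99.99%, tolerance 0.02 of a read).

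Values were transformed as log2(FPKM + 1), which understates changes of low genes. Genes that reached 1 FPKM in 3 or more libraries were tested with limma 3.58.1 (R 4.3.3), with trend, on 4 group means over 12 libraries (8 residual degrees of freedom), two-sided, with Benjamini-Hochberg adjustment over 10805 genes and a threshold of 0.05. The comparisons share the spread, and the 2 model comparisons share libraries with the HDCA comparisons. The fit was also run on simulated reads, drawn gene by gene without a shift of whole libraries. That run says nothing about the libraries that stood apart. The members and lists were chosen with earlier results of these data known. Named members are those called, or the 3 with the smallest p in each direction where none was, with Irf7, Irf9, Stat2, Isg15 and Usp18 always. Of the pathway and further lists, up to 4 called genes a comparison and Irf1, Ifnar1 and Ifnar2 are named, and a further gene of that rule is not reported here. Ifi27l2a, Ifit1, Ifit3, the other members given by their fold change, Stat3, Parp9, Siglech, Apoa1 and the further genes given without a called result or for the filter alone were named after their values were seen.

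Alternatives were a pseudocount of 0.1, no filter, median-of-ratios scaling, the replicate number as a block, only the libraries compared, limma-voom on recovered reads, array weights, each library left out, and BDL replicate 1 and BDL_HDCA replicate 2 left out. BDL replicate 1 and BDL_HDCA replicate 2 stood apart by their values in these same data, so calls made without them are a description. Leaving out Abcb4KO replicate 1 as well was chosen after seeing the data. Same-numbered libraries of Abcb4KO_HDCA and Abcb4KO deviated together from their group means (correlation 0.31 to 0.55 in the 3 pairs). No label says what a number marks, and the main fit did not use these pairs. The replicate block applied the numbers across all 4 groups, so no fit paired Abcb4KO_HDCA with Abcb4KO alone.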

Additional observations from a re-analysis of the deposited data

How the results depend on the processing

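For HDCA in either model and for the difference of its effects, 0 members were called in every setting run, the replicate block included, which changed no call there. Between the untreated models, 6 members were called higher. The count was 3 with median-of-ratios scaling (5.92% of all genes), 3 with the replicate block (11.6%) and 2 with only the libraries compared (6.02%). It was 18 with array weights (38.9%) and 14 without BDL replicate 1, BDL_HDCA replicate 2 and Abcb4KO replicate 1 (19.8%). Without 1 library it was 0 to 13, against 4.18% to 20.1% of all genes. It was 4 with a pseudocount of 0.1 (13.3%), without a filter (12.6%) and with limma-voom (13.6%). Members called lower numbered 0, but 1 with array weights (6.9% of all genes), 2 without both BDL replicate 1 and BDL_HDCA replicate 2 (3.34%) and 2 without those and Abcb4KO replicate 1 (3.73%). Between the HDCA-treated models, 0 were called higher, but 2 with array weights (20.2% of all genes) and 1 without both low libraries (8.45%). The count was 4 without these and Abcb4KO replicate 1 (10.8%), and 0 to 3 without 1 library, against 1.33% to 12.7% of all genes. Called lower were 0, but 1 without both low libraries (3.34%) and 1 without the 3 (3.95%). The cause of these shifts was not tested. Same-numbered libraries correlated at -0.24 to -0.15 between Abcb4KO and BDL and at -0.23 to -0.03 between Abcb4KO_HDCA and BDL_HDCA. Between BDL_HDCA and BDL the range was -0.43 to 0.43, and the 0.43 was replicate 3 of each. BDL_HDCA replicate 2 and BDL replicate 1, the libraries that stood apart, correlated at 0.55. Such libraries weigh on deviations from means of 3, so the check cannot decide whether BDL_HDCA and BDL were paired. Zbp1 and Ifi27l2a had the widest standard errors (0.52 each in the comparisons of 2 groups), and Ifit3b and Oas2 rested on the fewest reads.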
